A study of Mus musculus with 6 samples.

Results

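The homeobox genes Msx1, Msx2, Msx3, Pax3, Pax7, Pax6, Gsx1, Gsx2, Dbx1 and Dbx2 mark dorsal and intermediate progenitors of the developing neural tube. They were chosen by name, as the rows whose gene symbol equals one of these names, and all 10 of 10 were found among the 15095 genes of the authors' table. The bulk polyA RNA-seq experiment covered mouse neural progenitor cells (NPCs), with 3 Setd2-KO libraries and 3 wild-type libraries. Setd2-KO and wild-type cells share 1 mouse embryonic stem cell background, HA36CB1, and differ in Setd2, which encodes the methyltransferase that places H3K36me3 in transcribed gene bodies and was disrupted in the Setd2-KO line by CRISPR. Aggregates of both genotypes were grown for 4 days without and for 4 days with 5 uM retinoic acid. The sources read here state neither whether replicate libraries stem from independent differentiations nor which clone was sequenced.

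The table gives 1 level per gene, the authors' mean log2 CPM (reads of the gene scaled to a common library size) over all 6 libraries of both genotypes. It holds no value for a single library, so the depth and the spread between libraries are unknown and no error can be attached to a level. The columns in which the authors compared Setd2-KO with wild-type NPCs were left out by choice, and the genotypes were not compared here. A level is therefore a description of the pooled culture. In pooled RNA, few cells with much of a transcript and many cells with little of it cannot be told apart. Each level, rank and share averages over both genotypes, which may differ, and how it splits between them was not examined. The median over all 15095 genes was a log2 CPM of 4.57, with a range from -2.54 to 14.2.

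Progenitors of the neural tube are sorted along the dorsoventral axis by signals from both poles, bone morphogenetic proteins (BMPs) and Wnts from the dorsal roof plate and Sonic hedgehog from the ventral floor plate. Homeobox factors read these signals, and neighbouring factors often repress each other, so that each progenitor domain expresses its own combination. Msx and Pax3 and Pax7 factors belong to the dorsal part, Gsx factors to dorsal domains that yield interneurons, Dbx factors to the intermediate domains, and Pax6 spans the middle of the axis. Each protein binds DNA through a homeodomain, and the Pax proteins have a paired domain in addition.

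The 4 promoter stretches shown here belong to the gene with the highest level per kilobase (Dbx1), the gene with the most reads (Pax6, the more upstream of its 2 starts), the highest Msx gene (Msx3) and the gene with the lowest level (Gsx2). Each is the 120 bases before the RefSeq start on build GRCm38.p6, 5′ to 3′ on the strand of the gene, and capitals mark matches, on either strand, to the short motifs named after the sequences. They lie at chr7:49636836-49636955 on the minus strand for Dbx1, chr2:105668776-105668895 on the plus strand for Pax6, chr7:140049089-140049208 on the minus strand for Msx3 and chr5:75075481-75075600 on the plus strand for Gsx2.
Dbx1: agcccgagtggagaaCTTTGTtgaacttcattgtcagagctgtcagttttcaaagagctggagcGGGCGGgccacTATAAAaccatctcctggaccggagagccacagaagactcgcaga
Pax6: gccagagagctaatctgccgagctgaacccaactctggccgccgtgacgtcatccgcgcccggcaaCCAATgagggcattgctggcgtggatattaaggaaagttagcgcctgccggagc
Msx3: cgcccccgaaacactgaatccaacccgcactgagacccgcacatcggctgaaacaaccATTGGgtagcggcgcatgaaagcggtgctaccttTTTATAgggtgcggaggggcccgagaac
Gsx2: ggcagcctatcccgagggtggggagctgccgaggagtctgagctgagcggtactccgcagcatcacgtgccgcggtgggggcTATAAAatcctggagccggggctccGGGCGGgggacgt

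The motifs searched were the TATA box (TATAAA), the CCAAT box (CCAAT), the GC box (GGGCGG), a homeodomain core (TAATTA), a retinoic acid receptor half-site (AGGTCA), a Sox core (ACAAAG) and a paired-type homeodomain site (TAAT and ATTA with any 3 bases between them). In the stretches shown, no matches overlapped each other. A TATA box began 45 bases before the start of Dbx1 and 38 bases before that of Gsx2, and on the opposite strand of Msx3 one lay with its upstream end 28 bases before the start. The highest and the lowest gene per kilobase thus both held a TATA box and a GC box. RefSeq promoters of 300 bases (250 before and 50 after the start) were found for 9 of the 10 genes, as 10 windows, since Pax6 has 2; Pax3 had none. The TATA box was in 3 of these 10 windows, against 13.6% of all 32851 promoters of the table, the CCAAT box in 5 (37.4% of all), the GC box in 6 (35.7%), the Sox core in 4 (18.7%) and the homeodomain core in 1, that of Msx2 (5.29%). The half-site (16.3% of all) and the paired-type site (0.487%) were in 0. With 10 windows these counts are descriptions of letters only. The observed over expected CpG ratio of the windows was between 0.416 for Dbx2 and 0.998 for the more downstream start of Pax6. All were above the median of all promoters of 0.384, but Dbx2 lay near it, in the 52.5 percentile. In GC content the windows ranged from the 27.3 percentile of all promoters at the more downstream start of Pax6 to the 90.9 percentile at Msx1.

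Per kilobase of merged exons, Dbx1 had the highest level of the 10 genes and Gsx2 the lowest. Levels of different genes can be compared only per length, so the mean CPM of each gene was divided by the length of all its annotated exons (GENCODE vM39, GRCm39). On the log2 scale, the level per kilobase was 7.03 for Dbx1, 4.24 for Pax6, 3.88 for Msx3, 2.98 for Pax3, 2.90 for Msx1, 2.27 for Dbx2, 2.22 for Pax7, 1.89 for Msx2, 1.87 for Gsx1 and -2.22 for Gsx2. The order has a gap at each end, 6.95-fold between Dbx1 and Pax6 and 17.1-fold between Gsx1 and Gsx2. The upper gap depended on the length: per kilobase of coding sequence Dbx1 was 1.22-fold above Pax6, and the gap lay below Pax6 instead, which was 4.07-fold above Msx3. Without division by length, the mean log2 CPM of Pax6 (8.24) was above that of Dbx1 (8.15). By merged exons the 8 genes between the ends lay closer together, and Pax3 and Msx1 (1.06-fold), Dbx2 and Pax7 (1.03-fold) and Msx2 and Gsx1 (1.01-fold) were almost level. Whether any neighbours in this order differ beyond the spread between libraries was not tested, because that spread is unknown. The median over the members was 2.58 and that over all genes 1.89, and 8 of the 10 members lay above the median of all genes. On the scale of mean log2 CPM, which shows the amount of reads behind a gene, 6 of the 10 lay above the median of all genes and 2, Pax6 and Dbx1, in the top 10%.

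**Figure D1:**
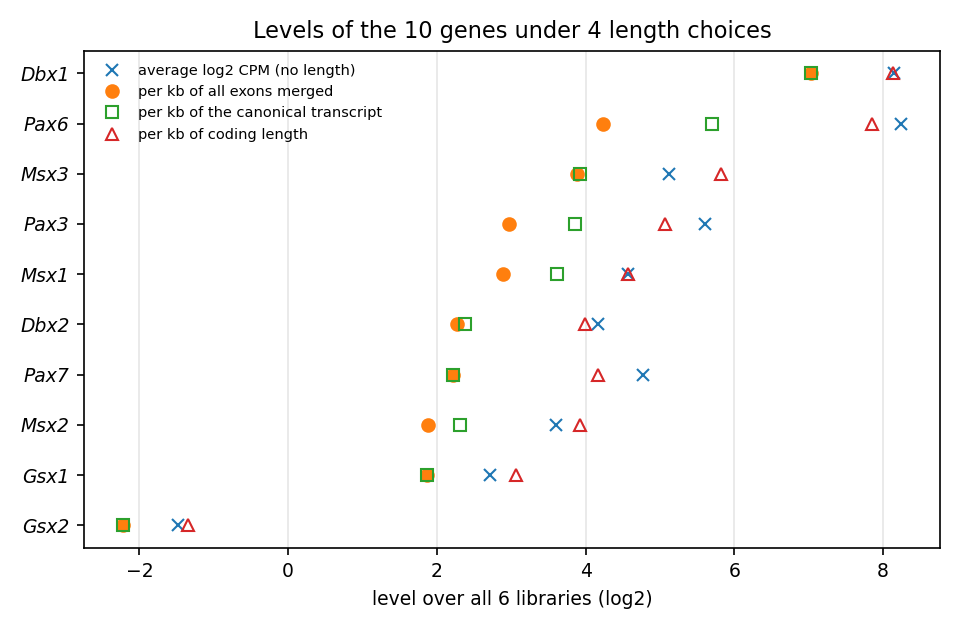
Levels of the 10 genes (y axis, ordered by the level per kilobase of merged exons) as the authors' mean log2 CPM over all 6 libraries and per kilobase of 3 different lengths (x axis, log2); each symbol is 1 value per gene and there are no error bars because no values per library were used. Dbx1 lies at the top and Gsx2 at the bottom under each length, and the symbols of Pax6 are spread from 4.24 to 8.24.

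The intermediate factors Dbx1 and Dbx2 stood far apart. Dbx1, which marks the p0 progenitors near the middle of the dorsoventral axis and is needed for the commissural V0 interneurons that arise there, had a mean log2 CPM of 8.15 (284 CPM), rank 541 of 15095 genes, and a level per kilobase in the 98.5 percentile of all genes. Dbx2, expressed in a wider intermediate band that includes the p0 domain, had a mean log2 CPM of 4.17 (18.0 CPM) and stood in the 56.3 percentile per kilobase. Dbx1 was thus 27.2-fold above Dbx2 per kilobase of merged exons and 17.8-fold per kilobase of coding sequence, and made up 96.5% of the summed level of the pair. Dbx1 (gene ID ENSMUSG00000030507) has 1 annotated transcript of 4 exons and lies on chromosome 7 from 49281246 to 49286671 (GRCm39, minus strand), so its merged and its canonical exon length are the same. Dbx2 (ENSMUSG00000045608) lies on chromosome 15 from 95521444 to 95553841 (minus strand), with 7 transcripts. On the opposite strand, the noncoding gene Gm31690 shares 10.9% of the exon bases of Dbx2.

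Pax6 had the most reads of all members. It is the broad progenitor factor of the ventricular zone, repressed at the ventral end by hedgehog signalling. Its mean log2 CPM was 8.24 (302 CPM), rank 489 of 15095 and in the 96.8 percentile of all genes. Per kilobase its level depended on the length. Pax6 (ENSMUSG00000027168, chromosome 2 from 105499234 to 105530952, plus strand) has 36 annotated transcripts whose merged exons span 16.0 kb. Its canonical transcript of 12 exons is 5.81 kb long and its longest coding sequence 1.31 kb. The log2 level was 4.24 per kilobase of merged exons, 5.70 of canonical transcript and 7.85 of coding sequence. Dbx1 was 6.95-fold above Pax6 by the first measure and 1.22-fold above by the last, but Pax6 remained in second place under all 3 lengths. Of its exon bases, 21.1% lie on exons of Elp4, an Elongator subunit gene on the opposite strand with a mean log2 CPM of 4.83, and the antisense transcript Pax6os1 was also in the table at -0.21. The libraries were strand-specific, but the sources used here do not say whether the quantification used strand, and so reads of the shared exons may not be separated.

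Pax3 and Pax7, the dorsal Pax factors, were lower than Pax6. They are close paralogs that act in dorsal progenitors, and Pax3 and Pax7 also mark neural crest and skeletal muscle precursors. Pax3 (ENSMUSG00000004872, chromosome 1 from 78077904 to 78173771, minus strand) had a mean log2 CPM of 5.61 (48.7 CPM), and Pax7 (ENSMUSG00000028736, chromosome 4 from 139464373 to 139560839, minus strand) had 4.77 (27.3 CPM). Pax3 was 1.69-fold above Pax7 per kilobase of merged exons and 1.86-fold per kilobase of coding sequence. Per kilobase of the canonical transcript Pax3 and Pax7 lay further apart, at log2 levels of 3.85 and 2.22. Pax6 was 2.39-fold above Pax3 and 4.04-fold above Pax7 by merged exons, and 6.89-fold and 12.8-fold by coding sequence. Of the summed level of these 3 Pax genes per kilobase of merged exons, Pax6 took 60.1%, Pax3 25.1% and Pax7 14.9%. Per kilobase of coding sequence the shares were 81.8%, 11.9% and 6.38%, and of the summed CPM they were 79.9%, 12.9% and 7.22%, in the same order of genes.

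Among the Msx factors, which are targets and effectors of BMP signalling, Msx3 was highest in the mean over both genotypes. In the mouse, Msx3 is restricted to the dorsal neural tube, whereas Msx1 and Msx2 are also expressed in the roof plate, neural crest, limb buds and other sites of BMP signalling. The mean log2 CPM was 5.12 (34.7 CPM) for Msx3, 4.57 (23.7 CPM) for Msx1 and 3.60 (12.2 CPM) for Msx2. Per kilobase of merged exons Msx3 was 1.98-fold above Msx1 and 3.98-fold above Msx2. By this length it made up 56.9% of the summed level of the family, against 28.8% for Msx1 and 14.3% for Msx2. Per kilobase of the canonical transcript the 3 genes lay closer together, at log2 levels of 3.92 for Msx3, 3.61 for Msx1 and 2.31 for Msx2. Msx3 (ENSMUSG00000025469) lies on chromosome 7 from 139626068 to 139629002, Msx1 (ENSMUSG00000048450) on chromosome 5 from 37977829 to 37981928 and Msx2 (ENSMUSG00000021469) on chromosome 13 from 53620914 to 53627110, all on the minus strand, and the canonical transcript of each has 2 exons. Msx3 has a near neighbour on each side, Zfp511 at 5.55 kb with a mean log2 CPM of 4.13 and Caly at 18.3 kb with -0.38.

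The Gsx factors were the lowest of the 4 families, with a summed level of 3.88 CPM per kilobase, against 25.9 for the Msx, 31.4 for the Pax and 135.8 for the Dbx genes. Per kilobase of coding sequence, an alternative added after seeing the data, the sums were 8.77 for the Gsx, 95.7 for the Msx, 282.8 for the Pax and 298.2 for the Dbx genes, so that Pax and Dbx were nearly level, and in CPM the Pax genes (378) were above the Dbx genes (302). Gsx1 and Gsx2 both specify dorsal interneuron progenitors in the spinal cord and hindbrain, and both act in the ventral forebrain. Gsx1 (ENSMUSG00000053129, chromosome 5 from 147125489 to 147127757, plus strand) had a mean log2 CPM of 2.71 (6.56 CPM) and stood in the 49.8 percentile per kilobase, next to Msx2. Gsx2 (ENSMUSG00000035946, chromosome 5 from 75236252 to 75238554, plus strand) had -1.48 (0.359 CPM), rank 14476 of 15095, and was the only member with a mean log2 CPM under 0, as were 12.4% of all genes. Gsx1 was 17.1-fold above Gsx2 per kilobase of merged exons and 21.3-fold per kilobase of coding sequence, a ratio that rests on a mean of under 1 CPM for Gsx2. The noncoding gene Gm72745 on the opposite strand shares 31.2% of the exon bases of Gsx2, so even this low level may hold reads of another transcript. Gsx1 and Gsx2 share chromosome 5 with Msx1 but lie far from each other, and each has its own neighbours. The closest genes of the table are Polr1d (mean log2 CPM 6.03) and Cdx2 (0.07) for Gsx1, and Chic2 (4.76) and Pdgfra (3.89) for Gsx2.

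**Figure D2:**
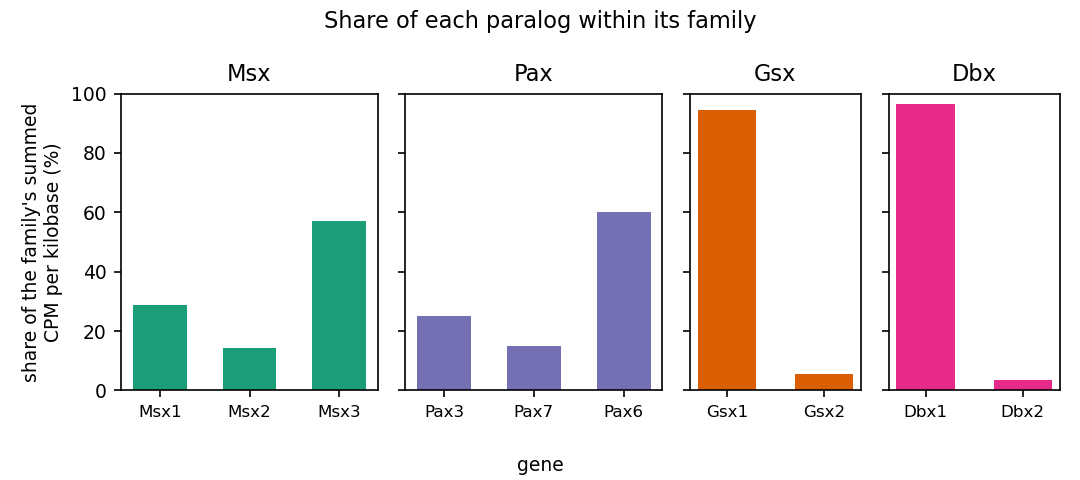
Share of each gene in the summed CPM per kilobase of merged exons of its family (y axis, percent) for the Msx, Pax, Gsx and Dbx genes (x axis), from the authors' means over all 6 libraries. Dbx1 (96.5%) and Gsx1 (94.5%) take nearly all of their pairs, while Msx3 (56.9%) and Pax6 (60.1%) take more than their paralogs together. For Msx3 this does not hold in CPM without length (49.2%) or per kilobase of the canonical transcript. By that length the log2 levels are 3.92 for Msx3, 3.61 for Msx1 and 2.31 for Msx2.

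Paralogs of a family were alike in protein but shared almost no long stretch of transcript. From the translated coding sequences of GENCODE vM39, the homeodomains of 60 residues had 58 identical residues between Pax3 and Pax7, between Msx1 and Msx2 and between Gsx1 and Gsx2, 59 between Msx1 and Msx3, 57 between Msx2 and Msx3, and 51 between Dbx1 and Dbx2. Pax6 stood apart from Pax3 (37 of 60) and Pax7 (38 of 60). Over whole proteins, identity was 74.0% between Pax3 and Pax7, 56.1% between Msx1 and Msx2, 49.4% between Msx2 and Msx3, 47.5% between Gsx1 and Gsx2, 44.9% between Msx1 and Msx3 and 34.7% between Dbx1 and Dbx2. In the 37 pairs of different families, it was between 14.7% and 27.7%. At the nucleotide level, the search for reads that could be assigned to more than 1 gene used words of 31 bases. Among the 8 pairs of 1 family only Pax3 and Pax6 shared any, 4 words. Msx2, of another family, also shared 4 words with Pax6 and 2 with Pax3. Pax3 shared words with 2815 other genes and Msx2 with 6026. Msx1, Msx3, Pax7 and Dbx1 shared 0 such words with any other annotated gene. The shares were 29.5% for Gsx2, 20.8% for Pax6 and 9.80% for Dbx2, nearly all with the overlapping genes named above, and at most 1.25% for Pax3, Msx2 and Gsx1. Reads of Dbx1 and Dbx2, or of Gsx1 and Gsx2, could therefore not match both paralogs over 31 bases.

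**Figure D3:**
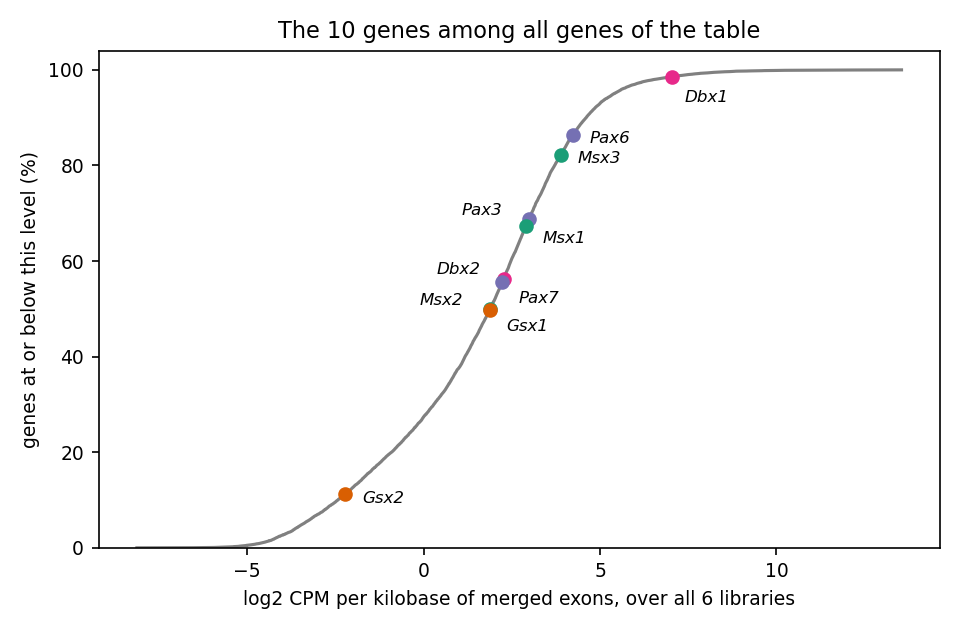
Share of genes of the table (y axis, percent) at or below a given log2 CPM per kilobase of merged exons (x axis), over all 6 libraries; the grey line is the distribution of the 15066 genes with a known length and coloured points are the 10 genes, with 1 colour per family. Dbx1 lies in the 98.5 percentile, Gsx2 in the 11.2 percentile, and the other 8 genes between 49.8 and 86.4.

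Among homeobox genes, the members took places from near the top to near the bottom. A residue signature of the homeodomain recognition helix was found in the translated proteins of 284 genes of the table in a looser form. That form also met proteins of other kinds such as Cdc37. A stricter form was found in 162 genes, among them Bptf, which is not a homeobox factor. The stricter form was also not complete, since homeobox factors such as the interneuron factor Barhl2 met only the looser form. Per kilobase and among the 162 genes, Dbx1 was in place 6, below Hoxb7 (log2 level 8.78), Hoxb8, Hoxb9, Hoxb4 and Hoxa5 and just above Hoxb6 (6.89) and Irx3 (6.67). Pax6 was in place 30, Msx3 in place 35, Pax3 in place 49 and Msx1 in place 50. Dbx2 (63), Pax7 (65), Msx2 (72) and Gsx1 (74) followed, and Gsx2 was in place 140. By mean log2 CPM without length, Pax6 was in place 9 of the 162 genes, Dbx1 in place 10, Pax3 in place 44, Msx3 in place 54 and Gsx2 in place 151.

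Other factors of the dorsoventral axis were set beside the members by their level per kilobase. The genes named were mostly picked by mean log2 CPM, so others can lie further out per kilobase. Examples are Hes5 (7.12) of the bHLH and Prdm list and Lhx9 (-5.01) of the interneuron list. Of 20 roof plate and dorsal signal genes, 19 were in the table with a median log2 level of 0.57, and 7 lay above the median of all genes, such as the ligand genes Bmp7 (3.88) and Wnt4 (3.31) and the zinc finger gene Zic1 (2.24), whereas Bmp5 (-2.55) and Rspo3 (-1.25) lay low. The BMP-related gene Gdf7, a defining roof plate marker, had no row. Why a gene has no row was not tested, so here and below a missing row is not read as a low level. Among the posterior factors below, Hoxd4 also had no row, while Hoxd3 had a mean log2 CPM of 9.24. Of 16 dorsal and intermediate bHLH, Prdm and related factors all 16 were in the table, with a median of 4.15 and 12 above the median of all genes. Neurog1 (7.07), a proneural factor, and Irx3 (6.67), an intermediate homeobox factor, were near Dbx1, and Atoh1 (-3.07) and Olig3 (-1.47), which mark the most dorsal neuronal progenitors, were at the low end. All 10 ventral progenitor factors were in the table with a median of 0.60, and 2 of them lay above the median of all genes, Nkx6-1 (2.57) and Nkx6-2 (2.23). Shh itself had -0.59 and Nkx2-2 -1.88. Of 22 homeobox factors of interneurons that arise from these domains, all 22 were in the table with a median of 0.04, and the range was wide, with Lhx1 (6.19), Pax2 (5.17) and Lhx5 (4.42) high and Barhl2 (-3.70) and Evx2 (-4.02) low.

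The listed factors of posterior identity had a higher median level than the listed factors of anterior identity. Of 23 posterior factors 22 were in the table, with a median log2 level per kilobase of 5.26, including Hoxb9 (8.25), Hoxb8 (8.26) and Hoxd3 (6.47), but Cdx2 (-1.11) and Cdx1 (-1.14), factors upstream of Hox genes, lay low. The posterior list holds no Hox gene numbered above Hoxb9 and Hoxc9. By mean log2 CPM, Hoxc10 (-0.42), Hoxa10 (-0.68), Hoxd10 (-2.07), Hoxc13 (-0.57), Hoxd13 (-1.16) and Hoxa13 (-1.65) were under 0, and Hoxb13 was at 2.83. Of 9 anterior factors 7 were present with a median of -2.45, with Emx2 (2.34) as the highest.

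**Figure D4:**
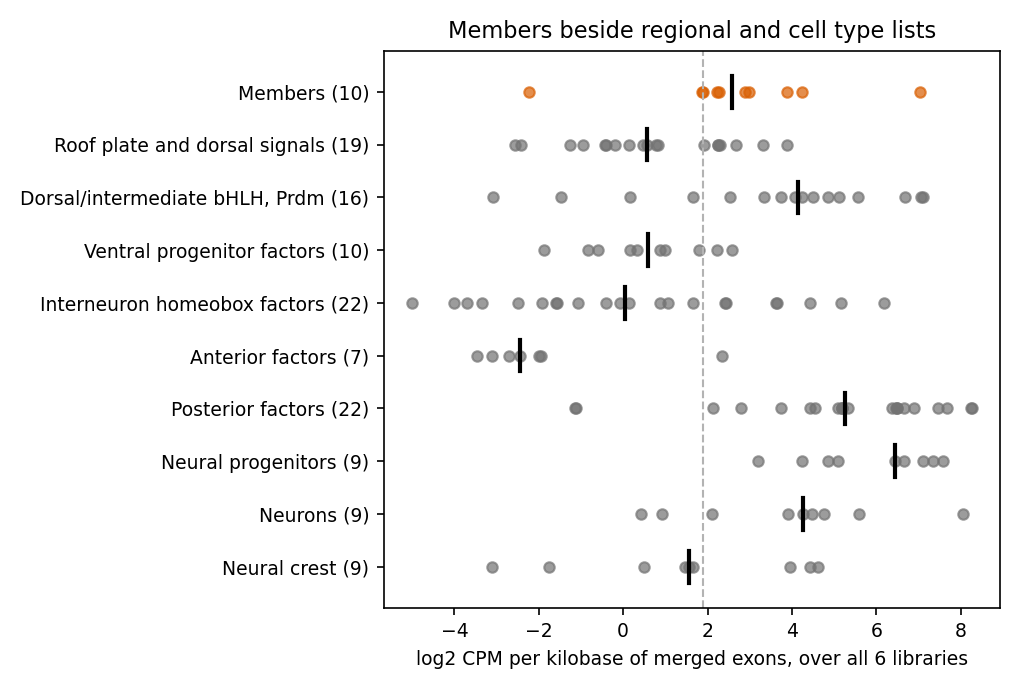
Log2 CPM per kilobase of merged exons over all 6 libraries (x axis) of the 10 members (orange) and of 9 gene lists (grey), with the number of genes in the table in parentheses; black bars are medians and the dashed line is the median of all genes, 1.89. The members have a median of 2.58, between ventral progenitor factors (0.60) and dorsal and intermediate bHLH and Prdm factors (4.15).

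The labels name the source as embryonic stem cells and the titles name the libraries as NPCs, so marker genes were read from the same pooled levels. Of 10 neural progenitor markers 9 were in the table, with a median log2 level per kilobase of 6.45 and all 9 above the median of all genes, among them Vim (7.57), Msi1 (6.64) and Sox3 (7.34), and the lowest was Fabp7 (3.21). The progenitor marker Sox1 had no row in the table. All 9 neuronal markers were in the table (median 4.25), and 7 of them lay above the median of all genes. Tubb3 (8.06) was the highest, and Rbfox3 (0.91) and Syt1 (0.42) were the lowest. Of 10 markers of pluripotent cells 9 were in the table, with a median of -1.33. Klf4 (2.06), which is not restricted to pluripotent cells, was the highest of these, and the defining markers Pou5f1 and Nanog had 0.75 and -2.07.

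Several members are also expressed outside the neural tube, and genes listed as markers of such cells were read in the pooled RNA. A listed marker need not be restricted to its cell type, and whether such cells were present was not tested. Of 9 neural crest markers, all 9 were in the table (median 1.55), Ednrb (4.62), Sox9 (4.43) and Foxd3 (3.95) being highest in CPM, whereas the defining markers Sox10 (-3.11) and Snai2 (-1.75) were low. Of 13 mesoderm markers 10 were in the table (median 0.36, highest Foxc2 with 3.05), and the muscle determination genes Myod1 and Myf5 had no row. Of 8 surface ectoderm markers 6 were in the table (median -0.78, with Krt18 at 5.55), and Krt5 and Trp63 had no row. All 9 endoderm markers were present (median 1.75), as were 3 of 6 markers of blood and endothelium (0.30) and 4 of 6 of glia (-1.57). Without values per library, the part of such cells in the levels of Msx1, Msx2, Pax3 and Pax7 was not tested.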

How the data were processed

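The authors made strand-specific polyA libraries, trimmed reads with Trim Galore, aligned them to GRCm39 with STAR and quantified genes with Salmon and GENCODE M35 inside nf-core/rnaseq, then removed low genes with filterByExpr and normalized with TMM in edgeR. The submitters' processing notes name NCBIM37 (mm9) instead. The authors' deposited values used here are log2 CPM, averaged over all 6 libraries. The table's other 4 columns, the authors' fold changes (2 forms), p-value and FDR for the genotypes, are their own comparison and were not used. No value per library was used, so no own test between Setd2-KO and wild-type NPCs and no precision can be given.

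Members and gene lists were chosen with earlier results of these data known. Of 15095 genes, 15066 matched GENCODE vM39 by ID without version. CPM was divided by merged exon length. Beside all members, up to 3 highest and 2 lowest genes by mean log2 CPM of each of 15 lists, markers without a row and neighbouring genes could be named. Further genes were named after their values were seen: Shh, Nanog, Hes5, Lhx9, Cdc37, Bptf, the homeobox genes beside Dbx1 and the Hox genes outside the posterior list. Motifs were chosen after the table was read. Proteins were aligned globally (BLOSUM62, gap penalties 11 and 1, Biopython 1.88, Python 3.11.15), and helper steps were tested on simulated data.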

Additional observations from a re-analysis of the deposited data

How the results depend on the processing

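All 10 members were found by symbol and by gene ID. In the order per kilobase, 8 of 10 members kept their position with the length of the canonical transcript and 8 with coding length, and 7 had the same position under all 3 lengths, but only 3 kept it when the mean CPM was not divided by length. The median percentile of the members among all genes was 51.7 by mean log2 CPM, 50.4 among protein-coding genes, 46.7 among genes with a mean log2 CPM of at least 0 (for the 9 members that met this bound) and 61.8 per kilobase of merged exons. Among genes with the homeodomain signature, the median percentile by mean log2 CPM was 62.7 in the looser form and 65.7 in the stricter form. The median identity over 8 pairs of 1 family was 46.2% for whole proteins, 49.7% with weaker gap penalties and 95.8% for homeodomains. No paired analysis was possible because the table holds no values per library, and leaving out a replicate or changing a pseudocount was not run for the same reason. Depth is unknown, so the precision of a low level such as that of Gsx2 cannot be stated.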
